A study of Mus musculus with 2 samples.

Results

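The collagen genes of mouse dermal cells were compared by structural class between 1 library of cultured fibroblasts and 1 library of cultured skin-derived precursors (SKPs). Members were all genes whose symbol names a collagen chain, together with Emid2, the older name of Col26a1. This gave 42 genes of the 17431 with reads in either library, of which 41 had reads in each library. Both cultures came from dermis of BALB/c mice with no genetic change given in the labels. The fibroblasts were from mice at postnatal day 3 and were kept in DMEM medium that held 10% fetal bovine serum. The SKPs, multipotent dermal cells selected by growth in mitogens, were from mice at postnatal day 4 and were kept in DMEM/F12 medium that held 40 ng/ml of FGF2, 20 ng/ml of EGF and B27 supplement at 2%. Cell type, age and medium therefore cannot be told apart, and the labels do not say whether animals were pooled. With 1 library per group there is no replicate check and no test of the cell types. Ranges in parentheses are 95% exact (Clopper-Pearson) intervals from the reads, which cover counting error only.

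Collagens are secreted or membrane-bound proteins whose chains wind around each other in a helix of repeated glycine triplets. The fibrillar types form the load-bearing fibrils of skin, and FACIT collagens (fibril-associated collagens with interrupted helices) coat those fibrils. Network collagens form the sheets of basement membranes and the hexagonal lattice of type VIII. Beaded filaments of type VI link fibrils to cells, transmembrane collagens sit in the cell surface, and multiplexins carry heparan or chondroitin sulfate chains beside basement membranes. Type VII collagen, which makes the anchoring fibrils below the epidermis, falls outside these 6 classes and was kept apart. Emid2 and Col28a1 were placed with the beaded class, where their assignment is less settled.

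The fibroblast library held 23374716 reads, of which 78.7% were counted in genes, and the SKP library held 22981183, of which 82.5% were counted. Levels are in RPKM, reads scaled by gene length in kilobases and by the library's counted reads, and 1 read in a gene of 1 kb was worth 0.0543 RPKM in fibroblasts and 0.0528 in SKPs. All 8 fibroblast markers in a fixed list, among them Vim, Dcn and Thy1, reached 1 RPKM in both libraries, but their levels differed. Lum stood at 17.1 RPKM in fibroblasts and 895 in SKPs, Dcn at 291 and 2007, and Thy1 at 994 and 313. By the 2-fold rule given below, 3 of the 8 were higher in SKPs, 1 was lower and 4 were neither. The labels do not say whether counting used strand, and some reads matched several positions, so the split between near-identical stretches of related genes is uncertain.

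Collagen genes took similar shares of both libraries, at 5.86% (5.85 to 5.87) of counted reads in fibroblasts and 5.37% (5.36 to 5.38) in SKPs, but the classes were divided differently. Multiplexins were 21.6-fold (20.7 to 22.6) and transmembrane collagens 9.37-fold (8.75 to 10.0) higher in SKPs by summed reads. Beaded collagens were 2.14-fold higher (2.12 to 2.16), network collagens 1.75-fold higher (1.73 to 1.78), and fibrillar collagens 1.26-fold higher in fibroblasts (1.25 to 1.26). FACIT reads were 4.60-fold higher in fibroblasts (4.55 to 4.65), and most of them came from the single gene Col12a1. Leaving out the 14 genes that led either library by reads, Col1a1, Col1a2, Col3a1 and Col12a1 among them, turned the order of the total shares, to 1.61% in fibroblasts and 2.68% in SKPs.

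A gene was called expressed at 1 RPKM and 20 reads in either library, and higher or lower when the levels lay 2-fold or more apart and the counting interval did not hold 1. Of the 42 members, 28 were expressed: 23 passed in both libraries, 4 through the SKP library alone and 1 through the fibroblast library alone. Of these 28, the SKP library was higher for 14 and lower for 5, and 9 were neither. Among all 12053 expressed genes, 12.1% were higher in SKPs and 6.41% were lower. The median log2 ratio of SKP over fibroblast was 1.17 for the expressed collagens and -0.01 for all expressed genes. Members that passed through 1 library alone (Col24a1, Emid2, Col6a6 and Col13a1 in SKPs, Col4a5 in fibroblasts) had to differ, so these counts lean on the filter. Of the 23 that passed in both libraries, 10 were higher in SKPs, 4 were lower and 9 were neither. The share over all genes that passed in both was not computed, so these counts have no like base. The 12.1% and 6.41% above include genes that passed in 1 library alone. The threshold also splits close neighbours: Col4a2, Col6a1 and Col6a3 stood at 0.98, 0.99 and 0.95 on the log2 scale and counted as neither, while Col1a1 at -1.05 counted as lower.

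**Figure D1:**
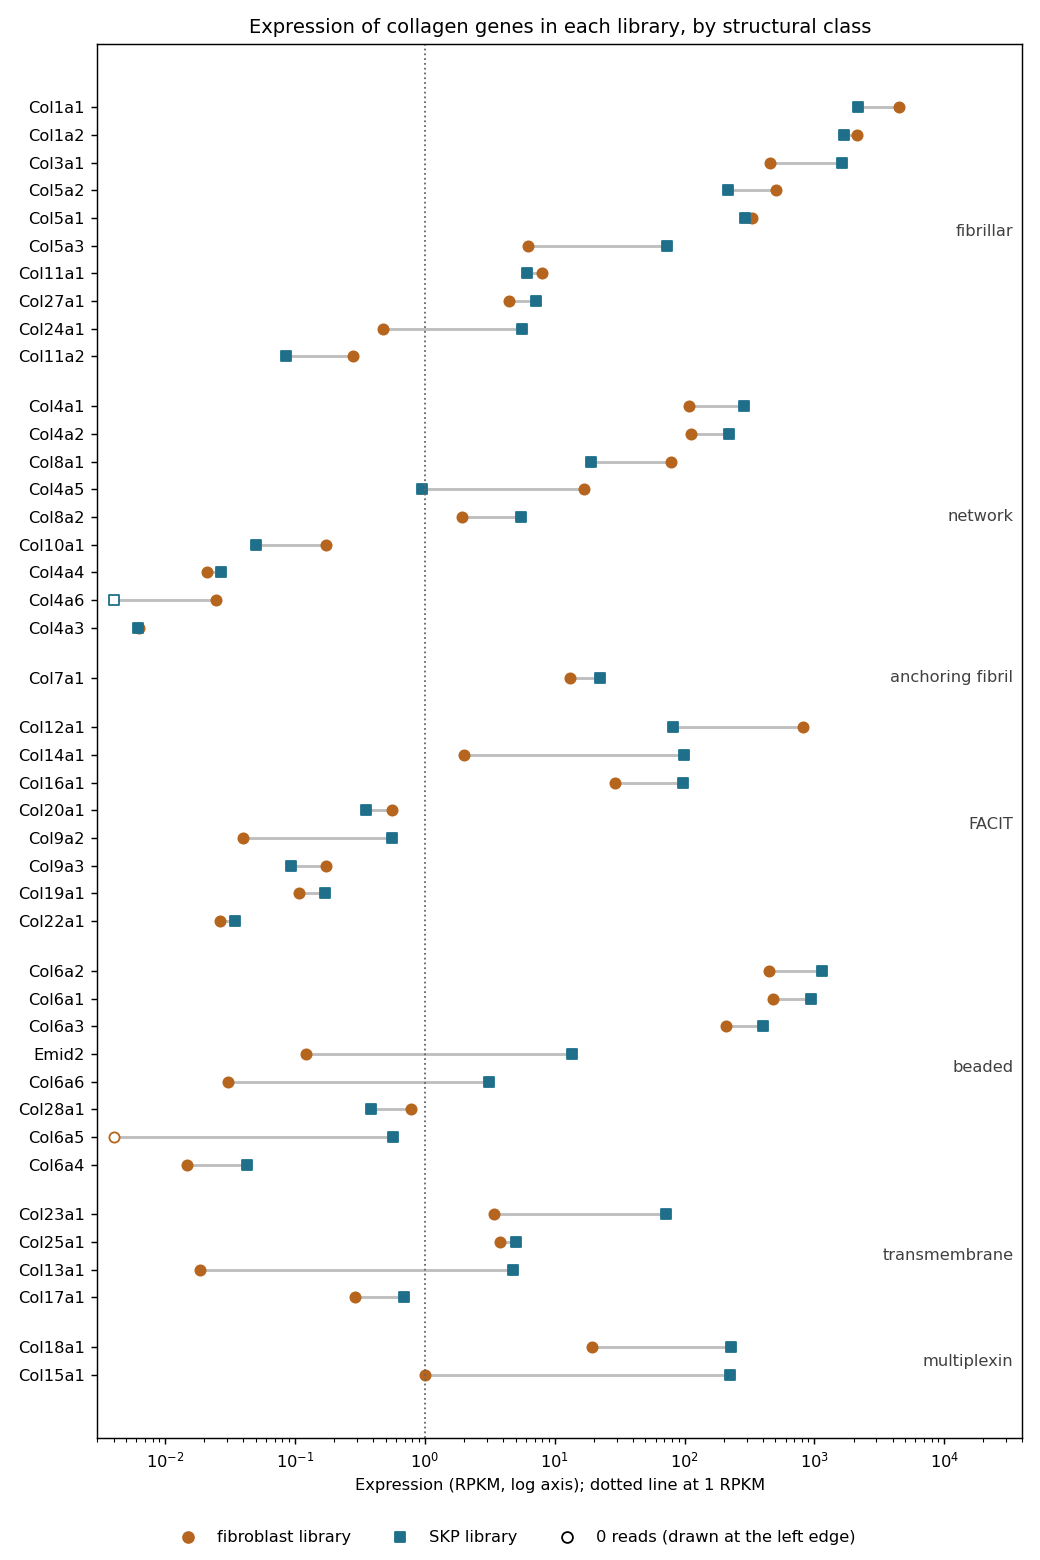
Expression of the 42 collagen genes in RPKM on a log axis, with 1 row per gene grouped by structural class, a circle for the fibroblast library and a square for the SKP library. Multiplexin squares lie far to the right of their circles, while Col12a1, Col4a5 and Col8a1 show the opposite order. The open symbols mark 0 reads for Col4a6 in SKPs and Col6a5 in fibroblasts.

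Promoter stretches are shown for 5 members that carry the contrasts described next: Col1a2 and Col3a1 and the type VIII partners Col8a1 and Col8a2, whose ratios diverge although their products share a fibril or lattice, and Col18a1, a multiplexin gene high in SKPs. Each run is the 100 bases before the outermost annotated start in RefSeq, build GRCm38.p6, which is not the build of the expression files. Capitals mark the letters GGGCGG (the GC box) on either strand. No TATAAA or CCAAT was found on either strand of these 5.
Col1a2 (chr6:4505518-4505617, plus strand): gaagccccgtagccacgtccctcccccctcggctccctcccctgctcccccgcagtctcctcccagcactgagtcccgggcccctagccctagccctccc
Col3a1 (chr1:45311438-45311537, plus strand): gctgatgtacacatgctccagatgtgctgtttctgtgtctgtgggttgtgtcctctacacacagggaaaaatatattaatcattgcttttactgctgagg
Col8a1 (chr16:57754738-57754837, minus strand): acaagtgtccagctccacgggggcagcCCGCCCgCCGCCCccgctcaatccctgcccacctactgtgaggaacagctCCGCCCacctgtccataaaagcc
Col8a2 (chr4:126286694-126286793, plus strand): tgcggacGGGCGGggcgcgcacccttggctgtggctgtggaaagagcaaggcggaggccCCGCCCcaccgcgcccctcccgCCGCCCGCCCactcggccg
Col18a1 (chr10:77166531-77166630, minus strand): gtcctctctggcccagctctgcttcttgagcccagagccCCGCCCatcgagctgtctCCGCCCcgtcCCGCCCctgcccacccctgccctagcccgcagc
Of the 42 members, 34 had a promoter window in the RefSeq table and 8 had none, including Col1a1, Col12a1 and Col14a1. These 34 genes had 36 windows, since Col18a1 and Col6a2 have 2 starts each. Within 100 bases before the start, GGGCGG was found in 18 windows, TATAAA in 2 (Col10a1 and Col17a1) and CCAAT in 3 (Col11a1, Col17a1 and Col4a2), each on either strand. Over all 32851 windows of the same length in the table, 24.7% held GGGCGG, 5.56% held TATAAA and 18.9% held CCAAT. Marked GC boxes can overlap one another, as in the printed run of Col8a2. Col1a2 and Col3a1, expressed at comparable levels in SKPs, had unlike stretches, with 74.0% and 43.0% G and C, and with 5 and 0 CG pairs. Col8a1 and Col8a2, whose ratios between the libraries had opposite signs, both held GC boxes. The printed Col18a1 stretch held GC boxes, but the stretch at its other start held none, and nor did that of Col15a1. Which start was used in these cells was not tested. A match of letters is a description only.

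Fibrillar collagens made up 77.2% of summed collagen RPKM in fibroblasts and 61.0% in SKPs, and the difference within the class was between chains. Of 10 members with reads 9 were expressed, with 3 higher in SKPs, 2 lower and 4 neither, and a median log2 ratio of -0.16. Col1a1, the main chain of type I collagen, stood at 4474 RPKM in fibroblasts, where it was the gene with the second-highest RPKM, and at 2161 in SKPs, where it ranked 10. Col1a2, the other type I chain, stood at 2136 and 1686 RPKM, 1.27-fold higher in fibroblasts (1.26 to 1.28). Col3a1, whose product co-assembles with type I in pliable skin fibrils, stood at 454 RPKM in fibroblasts and 1638 in SKPs, 3.60-fold higher in SKPs (3.57 to 3.64). The type I genes were thus higher in the fibroblast library and the type III gene in the SKP library, although only Col1a1 and Col3a1 passed 2-fold.

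The chain balance of the major fibrils also differed between the libraries, with intervals that do not overlap. Type I collagen normally holds more Col1a1 than Col1a2 chains, and the RPKM ratio of Col1a1 to Col1a2 was 2.09 in fibroblasts (2.08 to 2.11) and 1.28 in SKPs (1.27 to 1.29). Col3a1 reached 0.102 of the Col1a1 level in fibroblasts (0.101 to 0.103) and 0.758 in SKPs (0.753 to 0.763). In SKPs Col3a1 thus held 16.4% of summed collagen RPKM against 4.43% in fibroblasts, and Col1a1 held 21.7% against 43.6%.

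The minor fibrillar chains, which help set fibril width, differed by chain as well. Col5a1, the chain common to type V trimers, was nearly level at 328 RPKM in fibroblasts and 294 in SKPs. Col5a2, its usual partner, stood at 509 RPKM in fibroblasts and 217 in SKPs and was 2.35-fold higher in fibroblasts (2.32 to 2.38). Col5a3, the rarer partner, stood at 6.19 and 73.5 RPKM and was 11.9-fold higher in SKPs (11.0 to 12.9). Col5a1 therefore stood at 0.645 of Col5a2 in fibroblasts (0.637 to 0.652) and at 1.36 in SKPs (1.34 to 1.38). Its ratio to Col5a3 was 53.0 in fibroblasts (49.2 to 57.2) and 4.00 in SKPs (3.91 to 4.09).

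Fibrillar chains best known from cartilage and bone were scarce in both libraries. Col11a1 stood at 7.92 RPKM in fibroblasts and 6.09 in SKPs, and Col11a2 had 29 and 9 reads. Col27a1, another fibrillar gene, stood at 4.47 and 7.15 RPKM. Col24a1, a fibrillar gene linked to bone formation, stood at 0.472 RPKM in fibroblasts and 5.63 in SKPs, 11.9-fold higher in SKPs (9.21 to 15.7). Of the chondrocyte markers only Sox9 was expressed (6.77 RPKM in fibroblasts and 9.05 in SKPs), and the summed RPKM of that list was 7.14 and 9.56. Its member Hapln1 had 0 fibroblast reads, and Comp and Matn3 had 0 SKP reads. Summed osteoblast markers stood at 13.5 RPKM in fibroblasts and 25.6 in SKPs, with 2 of 3 expressed members higher in SKPs and with Dmp1 and Ibsp at 0 fibroblast reads. The part of either cell type in these values was not tested.

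**Figure D2:**
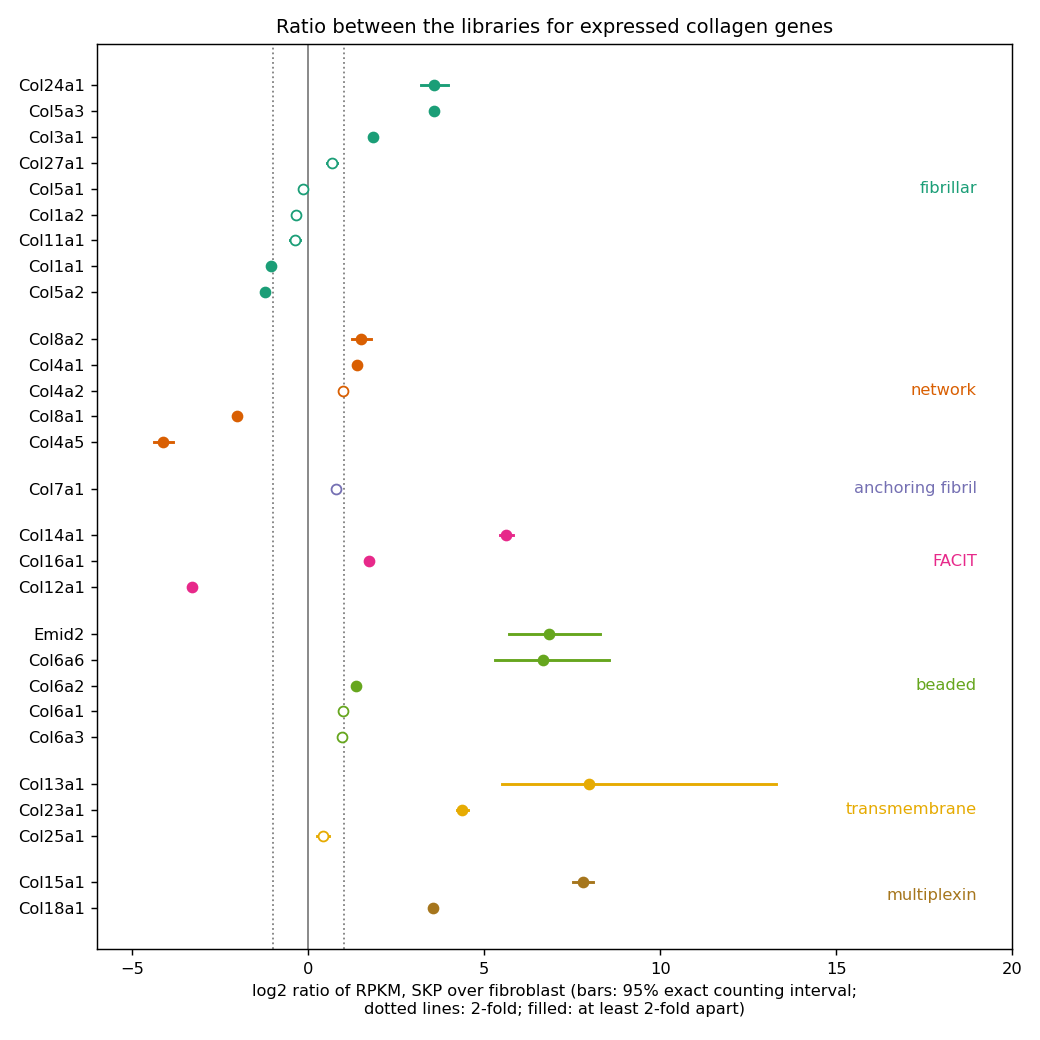
Log2 ratio of SKP over fibroblast RPKM for the 28 expressed collagens, with 95% exact counting intervals as bars and dotted lines at a 2-fold difference. Both multiplexins lie to the right of 2-fold, while fibrillar, network and FACIT genes lie on both sides of equality.

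FACIT collagens showed the widest split within a class. Col12a1, which lies on fibrils of tissues under tension, stood at 812 RPKM in fibroblasts and 81.3 in SKPs, 9.98-fold higher in fibroblasts (9.83 to 10.1). Col14a1, its close relative on the same fibrils, stood at 2.00 RPKM in fibroblasts and 98.7 in SKPs, 49.4-fold higher in SKPs (43.4 to 56.4). The ratio of Col14a1 to Col12a1 was 0.00246 in fibroblasts (0.00216 to 0.00280) and 1.21 in SKPs (1.19 to 1.24), and by reads without the length scaling it was 0.00137 and 0.673. Col16a1, found on fibrils and microfibrils near the epidermis, stood at 29.1 and 96.4 RPKM and was 3.32-fold higher in SKPs (3.18 to 3.46).

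The other 5 FACIT genes with reads were below the expression filter. Col20a1 had 43 reads in fibroblasts and 28 in SKPs, and Col19a1 had 21 and 34. Col9a2, a cartilage FACIT chain, had 2 reads in fibroblasts and 29 in SKPs, while Col9a3 of the same trimer had 9 and 5. Col22a1, of tissue junctions, had 3 and 4 reads. Col9a1 and Col21a1 of this class, and the fibrillar gene Col2a1, had no reads listed in either library, so no level is given.

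Network collagens divided within type IV and within type VIII. Col4a1 and Col4a2, the chains of the ubiquitous basement membrane type IV, stood at 109 and 113 RPKM in fibroblasts and at 285 and 221 in SKPs. They were 2.62-fold (2.57 to 2.67) and 1.97-fold (1.93 to 2.01) higher in SKPs, and their RPKM ratio was 0.968 in fibroblasts (0.945 to 0.992) and 1.29 in SKPs (1.27 to 1.31). These genes lie head to head on opposite strands, and their full RefSeq promoter windows, which reach past the start and are longer than the stretches scanned above, overlap by 78 bases.

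Col4a5, a chain of specialised basement membranes, was higher in fibroblasts, unlike Col4a1 and Col4a2. It stood at 16.7 RPKM in fibroblasts and 0.958 in SKPs, 17.4-fold higher in fibroblasts (14.4 to 21.1), and reads covered 98.2% of its length in fibroblasts and 47.18% in SKPs. Col4a6, its head-to-head neighbour and a partner in skin, had 3 reads in fibroblasts and 0 in SKPs, too few for a fold. Col4a3 had 1 read in each library, and Col4a4 had 3 and 4. The chains with which Col4a5 is known to assemble were thus at or near 0 in both libraries.

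The type VIII chains, which can assemble alone or together in a lattice around vessels and in the eye, were higher in different libraries. Col8a1 stood at 78.5 RPKM in fibroblasts and 19.1 in SKPs, 4.11-fold higher in fibroblasts (3.90 to 4.32). Col8a2 stood at 1.94 and 5.50 RPKM, 2.83-fold higher in SKPs (2.35 to 3.41). Their ratio was 40.4 in fibroblasts (34.4 to 47.6) and 3.48 in SKPs (3.14 to 3.86), so Col8a1 was the more abundant chain in both. Col10a1, the marker of hypertrophic cartilage, had 10 reads and 3 reads.

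Col7a1, of the anchoring fibrils, stood at 13.1 RPKM in fibroblasts and 22.5 in SKPs, a difference of 1.73-fold (1.64 to 1.82). Keratinocytes are a major source of it in skin. Of 5 expressed keratinocyte markers, 4 were higher in SKPs, and the summed list stood at 3.79 RPKM in fibroblasts and 30.1 in SKPs, with Krt14 at 0.970 and 13.4, and Krt1 at 0 reads in fibroblasts. Col17a1, the hemidesmosome collagen of basal keratinocytes, had 29 reads in fibroblasts and 71 in SKPs and stayed below 1 RPKM in both. No keratinocyte marker reached 1 RPKM in fibroblasts, so the count of higher markers leans on the filter. The part of keratinocyte RNA in the Col7a1 and Col17a1 values was not tested.

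Beaded collagens made up 11.1% of summed collagen RPKM in fibroblasts and 25.3% in SKPs, and the chains of the common type VI trimer differed between the libraries by similar factors. Col6a1 stood at 476 RPKM in fibroblasts and 948 in SKPs, a 1.99-fold difference (1.96 to 2.01). Col6a2 stood at 449 and 1150 RPKM, 2.56-fold higher in SKPs (2.53 to 2.60). Col6a3, the longest chain, stood at 209 and 403 RPKM, a 1.93-fold difference (1.91 to 1.95). The ratio of Col6a3 to Col6a1 was 0.439 in fibroblasts (0.432 to 0.445) and 0.426 in SKPs (0.422 to 0.430), and by reads without the length scaling it was 1.19 and 1.16. The ratio of Col6a1 to Col6a2 was 1.06 (1.05 to 1.08) and 0.824 (0.816 to 0.833).

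The alternative type VI chains, which can take the place of Col6a3, were low. Col6a6 had 4 reads in fibroblasts and 419 in SKPs, or 0.0306 and 3.12 RPKM, a 102-fold difference (39.4 to 375). Col6a5 had 0 and 101 reads, 32.7-fold higher in SKPs when 3 reads stand in for 0 (exact lower limit 26.1), but stayed below 1 RPKM. Col6a4 had 2 and 6 reads. Even in SKPs Col6a6 remained far below Col6a3 per length.

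Emid2, a poorly known collagen gene described in developing gonads, stood at 0.121 RPKM in fibroblasts, with 6 reads, and at 13.7 in SKPs, 114-fold higher in SKPs (52.0 to 311). Reads covered 10.87% of its length in fibroblasts and 97.23% in SKPs. Col28a1, reported in peripheral nerve, had 61 reads in fibroblasts and 31 in SKPs and stayed below 1 RPKM in both. Of 6 expressed Schwann cell markers, 4 were lower in SKPs, 1 was higher and 1 was neither. Sox10, a regulator of that lineage, stood at 4.05 RPKM in fibroblasts and 0.953 in SKPs, and S100b at 0.454 and 1.01. In fibroblasts 5 Schwann cell markers reached 1 RPKM and in SKPs 1 did, so these counts lean on the filter. The part of Schwann cells in the Col28a1 values was not tested.

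**Figure D3:**
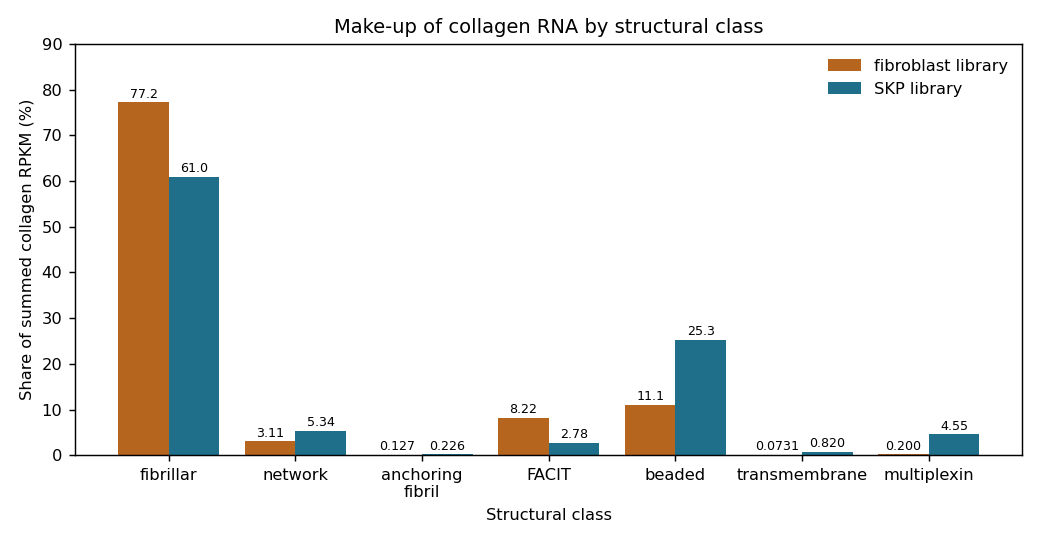
Share of summed collagen RPKM held by each class, in percent, with 1 bar per library. The fibrillar bar stands at 77.2% in fibroblasts and 61.0% in SKPs and the FACIT bar at 8.22% and 2.78%, while beaded and multiplexin bars are taller in SKPs.

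Transmembrane collagens, whose ectodomains can be shed, were scarce in fibroblasts. Col23a1 stood at 3.42 RPKM in fibroblasts and 71.3 in SKPs, 20.8-fold higher in SKPs (18.7 to 23.2), and supplied most reads of the class there. Col13a1, of adhesion sites and neuromuscular junctions, had 1 read in fibroblasts and 260 in SKPs, a 253-fold difference with a wide interval (44.9 to 10013). Col25a1, a neuronal member, stood at 3.76 and 5.03 RPKM, a difference of 1.34-fold (1.19 to 1.50). The summed RPKM of the class was 7.50 in fibroblasts and 81.8 in SKPs.

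Both multiplexins were far higher in SKPs and reached the same level there. Col15a1, which bridges fibrils and the basement membrane, stood at 1.01 RPKM in fibroblasts and 225 in SKPs, 223-fold higher in SKPs (183 to 275). Col18a1, the source of endostatin, stood at 19.5 and 229 RPKM, 11.7-fold higher in SKPs (11.2 to 12.3). Their ratio was 0.0518 in fibroblasts (0.0419 to 0.0633) and 0.986 in SKPs (0.968 to 1.00), so the levels in SKPs did not differ beyond counting error. In fibroblasts the order was Col18a1 above Col15a1 by 19.3-fold (15.8 to 23.9). Summed endothelial markers stood at 2.04 and 4.90 RPKM, and the 1 of 7 that was expressed, Cdh5, was higher in SKPs. All 6 adipocyte markers were higher in SKPs, with sums of 23.2 and 371 RPKM and Lep at 0 fibroblast reads. No endothelial marker and 1 adipocyte marker reached 1 RPKM in fibroblasts, so both counts lean on the filter. Both cell types are known to make basement membrane, and their part in the multiplexin and type IV values was not tested.

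**Figure D4:**
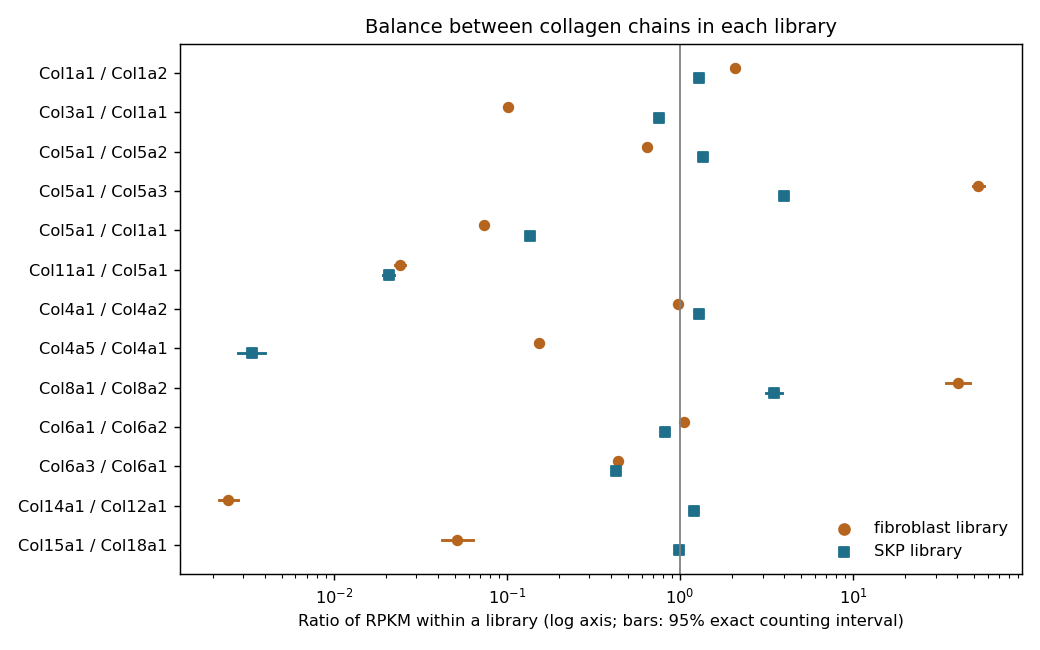
RPKM ratio between pairs of collagen chains within each library on a log axis, with 95% exact counting intervals as bars. Col6a3 over Col6a1 sits at nearly the same place in both libraries, at 0.439 and 0.426, while Col14a1 over Col12a1, Col15a1 over Col18a1 and Col4a5 over Col4a1 lie far apart.

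Ordered by level, the 5 leading collagens of the fibroblast library were Col1a1, Col1a2, Col12a1, Col5a2 and Col6a1, and those of the SKP library were Col1a1, Col1a2, Col3a1, Col6a2 and Col6a1. The top 3 held 72.3% of summed collagen RPKM in fibroblasts and 55.0% in SKPs. In fibroblasts 11 collagens reached 100 RPKM, and in SKPs 12 did. Of the 16 collagens at 10 RPKM or more in fibroblasts and the 20 in SKPs, reads covered at least 95.37% and 97.05% of the gene length.

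Partners of collagen were read from lists beside the members. For these lists and the marker lists, the shares to compare are those of all 12053 expressed genes, 12.1% higher in SKPs and 6.41% lower. Of 30 expressed genes for collagen processing and crosslinking, 3 were higher in SKPs, 6 lower and 21 neither (median log2 ratio -0.12). Serpinh1, the collagen chaperone of the endoplasmic reticulum, stood at 840 RPKM in fibroblasts and 806 in SKPs. The lysyl hydroxylase gene Plod1 stood at 53.3 and 240 RPKM, 4.50-fold higher in SKPs (4.33 to 4.68). Tll2, a relative of the procollagen C-proteinase gene Bmp1, had 0 and 360 reads, 117-fold higher in SKPs against the same floor of 3 reads (exact lower limit 94.3). Its paralog Tll1 and the C-proteinase enhancer gene Pcolce2 were each 11.0-fold higher in fibroblasts (6.07 to 21.8 and 6.58 to 19.7).

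Of 14 expressed basement membrane partners, 8 were higher in SKPs, 1 lower and 5 neither (median log2 ratio 1.19). Nid1, which ties laminin to type IV collagen, stood at 69.7 RPKM in fibroblasts and 297 in SKPs, 4.26-fold higher in SKPs (4.16 to 4.37). Frem1, a protein of the epidermal basement membrane, was 41.4-fold higher in SKPs (35.4 to 48.8), and the laminin chain gene Lamc3 9.97-fold (6.66 to 15.6). The lower member was the laminin chain gene Lama5, at 1.01 RPKM in fibroblasts and 0.301 in SKPs, 3.36-fold higher in fibroblasts (2.53 to 4.50). Frem1 stood at 0.907 RPKM in fibroblasts and 37.6 in SKPs, and Lamc3 at 0.238 and 2.38. Frem1, Lamc3 and Lama5 each passed in 1 library alone, so the counts of this list lean on the filter.

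Of 9 expressed collagen receptor and uptake genes, 2 were higher in SKPs, 1 was lower and 6 were neither. The receptor subunit genes Itga1 (4.01 and 10.8 RPKM) and Itga2 (0.103 and 10.7 RPKM) were higher in SKPs, and Itga11 (81.3 and 5.77 RPKM) was higher in fibroblasts. Of 13 expressed fibril-associated proteoglycan and glycoprotein genes, 7 were higher in SKPs, 3 were lower and 3 were neither. Kera stood at 0.167 and 47.9 RPKM and Thbs4 at 0.0339 and 10.7, while Prelp stood at 22.8 and 2.94 and Aspn, which binds type I collagen, at 158 and 23.5.

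All 5 listed smooth muscle and myofibroblast markers were lower in SKPs, with a summed level of 3020 RPKM in fibroblasts and 57.3 in SKPs. The 5 collagens Col12a1, Col8a1, Col1a1, Col5a2 and Col4a5 were lower in that library too, while 14 collagens were higher there. All 6 mast cell markers were higher in SKPs, with sums of 0.133 and 83.0 RPKM and Cpa3 and Mcpt4 at 0 fibroblast reads. All 3 expressed leukocyte markers were higher in SKPs, with sums of 4.27 and 25.9 RPKM and Cd52 at 0 fibroblast reads. No mast cell marker reached 1 RPKM in fibroblasts, so that count leans on the filter. In fibroblasts 2 leukocyte markers reached 1 RPKM, and in SKPs 3 did. Of the smooth muscle and myofibroblast markers, 5 reached it in fibroblasts and 3 in SKPs. The part of these cell types in the collagen differences was not tested. In such bulk libraries, fewer cells of a type and less RNA per cell cannot be told apart.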

How the data were processed

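RNA of 2 cultures was enriched for poly(A) RNA and sequenced, 1 library each, per the labels' protocols. Per the file headers, the count deposited for each gene is in whole reads, not normalized. The header calls the reads unique, yet their total is larger than that of singly matched reads, by 3924587 in fibroblasts and 4370357 in SKPs. The deposited RPKM scales them by gene length and the sum of counts, and the deposited coverage is the percent of gene length under reads, per the file headers. Mapping tables give 81.65% and 85.13% of 23374716 and 22981183 reads mapped to genes, as percent values deposited by the authors. The authors' comparison table gives log2 of fibroblast over SKP RPKM and an FDR, an adjusted p-value, from a test not named in the sources used here. Per the submitters' processing notes, reads were placed on mm9. The aligner, counting tool and strandedness are not stated in the sources used.

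From the deposited values, ratios and exact intervals were computed in Python 3.11.15 (pandas 2.3.3, numpy 2.4.6, scipy 1.17.1, matplotlib 3.10.9) on all genes. Where a library had 0 reads, 3 reads served as the floor, and no fold is given where the other library had 3 or fewer. No count model, p-value or left-out replicate was possible with 1 library per group. Alternatives changed the filter, the scaling, the pseudocount and the fold threshold. PCR duplicates are not independent molecules. The members, the lists and the rule for named genes were chosen with earlier results of these data known. That rule names all collagens and, of each other list, at most 2 genes with the highest ratio, 2 with the lowest and the 1 with the highest RPKM. Any name outside it was picked with its values known. The summed Schwann cell marker list is not reported here.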

Additional observations from a re-analysis of the deposited data

How the results depend on the processing

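At a 4-fold threshold 9 collagens were higher in SKPs and 3 lower, against 5.85% and 2.00% of expressed genes. Without the expression filter 17 of 41 were higher and 7 lower, against 13.7% and 6.78% of all genes tested. The median log2 ratio of the collagens was then 0.95. At 5 RPKM or more 12 of 26 were higher and 5 lower, with a median of 0.98, against 9.23% and 5.33%. The other scalings and log2(RPKM + 1) kept the counts of 14 and 5, with medians from 1.07 to 1.18. The shares of all expressed genes there were 9.11% to 12.1% higher and 4.21% to 6.89% lower. Over these, none of 112 single-gene log2 ratios changed sign, but the settings fixed that outcome. Adding 1 to both levels keeps their order, and the scalings moved log2 ratios by only 0.01, -0.04 and -0.01. The expressed collagen nearest to equality, Col5a1, stood at -0.16. The largest change was 5.49, for Col13a1 on log2(RPKM + 1).

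The collagen share depends on the denominator. Of all sequenced reads it was 4.61% in fibroblasts and 4.42% in SKPs. Without the 14 genes that rank among the 10 with the most reads in either library (4 of them collagens: Col1a1, Col1a2, Col3a1 and Col12a1), it was 1.61% in fibroblasts and 2.68% in SKPs, so the order turned. By reads in place of RPKM, each chain ratio shifts by the ratio of the gene lengths, equally in both libraries. This turned the order for Col6a3 over Col6a1 in both libraries (1.19 in fibroblasts and 1.16 in SKPs) and for Col14a1 over Col12a1 in SKPs (0.673). No paired analysis was possible because each group has 1 library. Depth limits genes with fewer than 20 reads in both libraries.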

Other observations

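The authors' deposited table of filtered genes holds 2659 genes, 22 of them collagens, of which 17 were listed as higher in SKPs and 5 as higher in fibroblasts. It includes all 19 expressed collagens called at least 2-fold apart above. The other 3 in the authors' deposited table, Col17a1, Col6a5 and Col9a2, lie below 1 RPKM in both libraries. That table rests on 2 libraries and compares those libraries, not the cell types.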
